A study of Mus musculus with 2 samples.

Results

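The genes examined here are the caspases, the gasdermins, the BCL2 family, the RIP kinases with their substrate gene Mlkl, and a few partners of these proteins, which together form the machinery of regulated cell death. They were taken by a rule on gene names, but the members were chosen with earlier results of these data known. The rule takes genes named Casp followed by a number and genes whose names begin with Gsdm or Bcl2. It adds Ripk1 to Ripk4 and 16 further genes, with pseudogenes left out. The rule found 53 of the 49492 genes listed. Primary wild-type (WT) epithelial cells of the mouse mammary gland, sorted by FACS as basal cells (lineage-negative, CD24+, CD29 high) from adult female mice, were grown in 3D for 10 days. The control library came from cells with no treatment, and the other from cells kept with recombinant mouse TNF-α at 10 ng/mL. Mouse strain and the number of animals behind each culture were not given in the sources used here, and the medium held EGF and ITS in both. There was 1 library per condition, so no difference reported here has a replicate check, and no p-value is given.

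Cells that receive TNF-α can live, inflame or die, and the genes above carry out the last of these outcomes in several ways. In apoptosis, initiator caspases activate executioner caspases, either from death receptors through FADD and caspase-8 or from mitochondria through APAF1 and caspase-9, and the BCL2 family decides whether mitochondria release the signal. In necroptosis, RIPK1 and RIPK3 act where caspase-8 is blocked, and MLKL perforates the plasma membrane. In pyroptosis, inflammatory caspases cut gasdermin D, whose released fragment forms pores. In many cells TNF-α alone does not kill, because NF-κB raises survival genes, and many of the death proteins are kept as inactive precursors, so transcript amounts say nothing of their activation.

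The control library held 44462275 counts and the TNF-α library 53487087. Of the 53 genes, 40 reached 10 counts summed over both libraries and 38 reached 200. Ratios are given as log2 of TNF-α over control, from CPM (counts scaled to a common library size) with library sizes scaled by the TMM method and a prior count of 2. The 95% interval given with each is a Clopper-Pearson interval of the share of a gene's counts that came from the TNF-α library, turned into a ratio. It covers counting error only, and it takes reads as independent, which reads amplified by PCR without molecular identifiers are not. The interval is too narrow if each end of a read pair was counted. More genes had 2 counts than 1 in both libraries, 2172 against 618 in the control and 2350 against 645 with TNF-α. A gene is called higher or lower when its fold passed 2 and this interval left out no change. Levels compared between genes are RPKM, which divides CPM by the exon length in kilobases.

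Among the 40 genes with at least 10 counts, 6 were called higher with TNF-α and 2 were called lower. The 6 were Gsdmd, Casp4, Ripk3, Mlkl, Bok and Pmaip1, and the 2 were Gsdma and Casp14. Over all 20771 genes with at least 10 counts, 7.39% were called higher and 5.89% lower. All 8 of the called genes had at least 200 counts, and among the 13609 genes counted that well 4.01% were called higher and 2.87% lower. The median log2 ratio of the 40 genes was 0.33, and 25 of them lay above 0, beside a median of 0.0038 over all genes. The 4 highest ratios belonged to genes of lytic death, a pore former and an activator each for pyroptosis and necroptosis. Other genes of these routes differed, since Casp1 and Ripk1 were not called. Gsdma, another gasdermin gene, had the lowest ratio of the 40, at -2.90. Of the 9 survival genes of the BCL2 family, the 4 with at least 10 counts stayed within 0.2 of no change on the log2 scale.

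**Figure D1:**
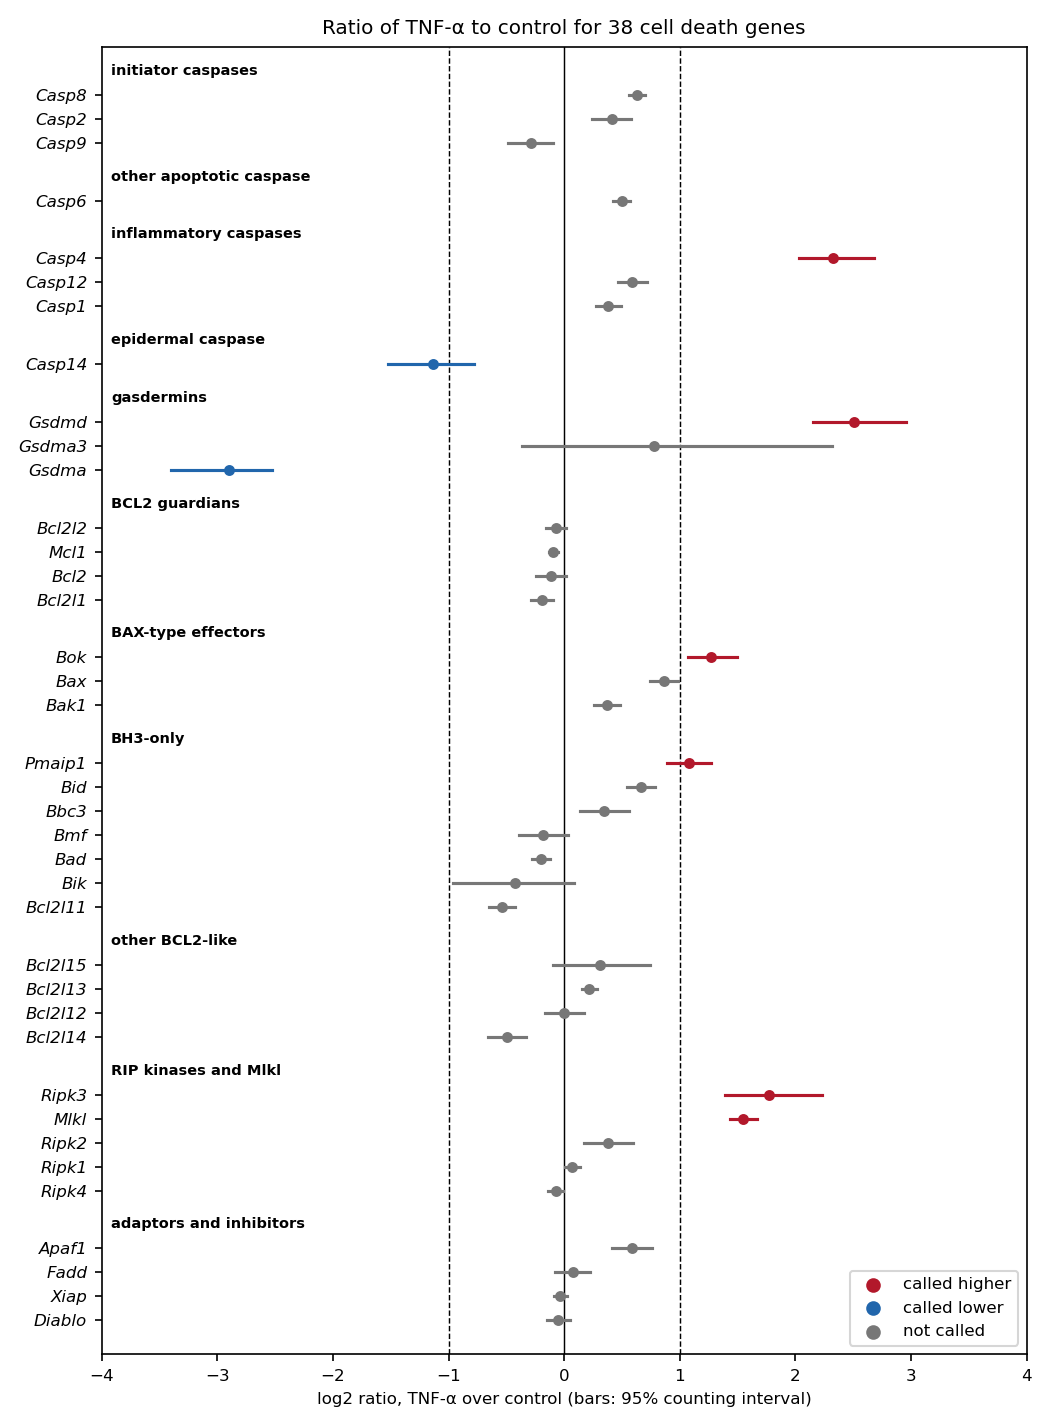
The horizontal axis gives the log2 TNF-α/control ratio of 38 of the genes with at least 10 counts, grouped by role, with bars for the 95% counting interval. Solid and dashed lines mark no change and 2-fold. Red points, called higher, run from Pmaip1 at 1.08 to Gsdmd at 2.51, and the blue points are Casp14 at -1.13 and Gsdma at -2.90.

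Pyroptosis was represented by gasdermin D and the inflammatory caspases. Gsdmd encodes the pore-forming protein that inflammatory caspases cut, and its exons span chromosome 15, GRCm38, from 75862339 to 75867404 (ENSMUSG00000022575). Gsdmd had 61 counts in the control and 425 with TNF-α. In CPM these were 1.37 and 7.96, a 5.68-fold difference and a log2 ratio of 2.51 (95% interval 2.15 to 2.95). Gsdmd had the highest ratio of the 40 genes, and 99.3% of the genes with at least 200 counts had a lower one.

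Casp4 encodes the mouse protein long called caspase-11, which binds lipopolysaccharide inside the cell and cuts gasdermin D. It lies on chromosome 9 from 5308828 to 5336783 (ENSMUSG00000033538) and had 94 counts in the control and 573 with TNF-α. Its log2 ratio was 2.33 (95% interval 2.03 to 2.68), a 5.01-fold difference. Its neighbours on either side are the other inflammatory caspase genes, and neither passed 2-fold. Casp1, whose protein is activated by inflammasomes and matures interleukin-1β, had 1224 and 1911 counts and a log2 ratio of 0.38 (95% interval 0.28 to 0.49). Casp12, whose protein has been linked to stress of the endoplasmic reticulum, had 794 and 1431 counts and a log2 ratio of 0.59 (95% interval 0.46 to 0.72). The 3 genes lie side by side on the plus strand between 5298517 and 5373032 and thus had unequal ratios within 1 locus.

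Despite its ratio, Casp4 remained the least abundant of the 3. Its level was 0.569 RPKM in the control and 2.89 with TNF-α, while Casp1 stood at 18.3 and 23.9 RPKM. Per length, Casp4 was at 0.031 of the level of Casp1 in the control and at 0.121 with TNF-α. Gsdmd stood at 0.771 and 4.48 RPKM, so that its level relative to Casp1 was 0.042 in the control and 0.188 with TNF-α. Relative to Casp4 the level of Gsdmd was 1.36 and 1.55, a ratio that differed less between the libraries. Per length, then, Gsdmd lay below Casp1 and above Casp4 in both libraries.

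The promoters of the called genes were read from RefSeq on GRCm38.p6 to show what sequence lies upstream of genes that were higher together. A promoter was listed for 38 of the 53 genes, with 51 starts in all. The 250 bases before the first listed start are shown for the 4 genes called higher that had an entry, 5′ to 3′ on the strand of the gene. Capitals mark matches to GGG, any 5 bases and CC, or on the other strand GG, any 5 bases and CCC, a loose form of the site that NF-κB binds, and overlapping matches run together.
Casp4 (chr9:5308599-5308848, plus strand): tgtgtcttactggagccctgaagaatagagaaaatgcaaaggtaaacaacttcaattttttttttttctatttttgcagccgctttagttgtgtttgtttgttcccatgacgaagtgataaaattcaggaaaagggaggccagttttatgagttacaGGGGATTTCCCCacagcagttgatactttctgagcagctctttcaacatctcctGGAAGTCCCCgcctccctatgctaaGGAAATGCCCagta
Bok (chr1:93685325-93685574, plus strand): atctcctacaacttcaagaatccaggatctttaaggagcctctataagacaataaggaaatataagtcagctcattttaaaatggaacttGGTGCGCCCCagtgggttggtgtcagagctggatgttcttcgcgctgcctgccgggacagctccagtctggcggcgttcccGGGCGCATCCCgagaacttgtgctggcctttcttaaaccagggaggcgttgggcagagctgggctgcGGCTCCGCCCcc
Ripk3 (chr14:55788858-55789107, minus strand): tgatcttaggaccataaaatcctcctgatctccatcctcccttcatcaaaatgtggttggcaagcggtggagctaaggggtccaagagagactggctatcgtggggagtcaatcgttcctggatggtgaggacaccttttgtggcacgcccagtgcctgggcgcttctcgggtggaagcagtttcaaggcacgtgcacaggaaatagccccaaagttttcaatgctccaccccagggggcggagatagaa
Mlkl (chr8:111338206-111338455, minus strand): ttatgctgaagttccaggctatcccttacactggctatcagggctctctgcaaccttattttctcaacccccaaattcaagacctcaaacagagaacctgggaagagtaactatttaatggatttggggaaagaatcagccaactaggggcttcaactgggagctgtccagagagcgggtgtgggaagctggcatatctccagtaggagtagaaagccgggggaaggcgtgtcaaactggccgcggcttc
Casp4 held matches at 3 places, the longest of them the symmetric run GGGGATTTCCCC. Bok held matches at 3 places, and Ripk3 and Mlkl held none in this window. Such letters are common, since 50.8% of all 32851 listed promoters of 300 bases hold a match on either strand, and so did 35 of the 51 promoters of the death genes (68.6%). A form of the interferon-response element, GAAA, any 2 bases and GAAA, or on the other strand TTTC, any 2 bases and TTTC, was found in 2 of the 51 promoters and in 3.44% of all. This form was not found in the promoters of Casp4, Bok, Ripk3 and Mlkl, and no promoter of Gsdmd or Pmaip1 was read. The matches describe letters and are not evidence of binding.

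The other gasdermins gave a different picture. Gsdma, which is known from skin and the upper digestive tract, lies on chromosome 11 from 98664351 to 98677708 (ENSMUSG00000017204). It had 336 counts in the control and 52 with TNF-α, which gives a log2 ratio of -2.90 (95% interval -3.40 to -2.53) and a level 7.47-fold lower. Thus Gsdma and Gsdmd changed places between the libraries. In the control Gsdma had the higher level of the pair, at 2.77 RPKM against 0.771 for Gsdmd, and with TNF-α it had the lower, at 0.357 against 4.48. Of the copies next to Gsdma, Gsdma3 had 8 and 18 counts (log2 ratio 0.78, 95% interval -0.36 to 2.32) and Gsdma2 had 2 and 0. The interval of Gsdma3 spans no change, so a difference was not detectable at this depth. Gsdmc had 4 and 2 counts and Gsdmc4 had 3 and 0, while Gsdmc2, Gsdmc3, Gsdmcl1 and Gsdmcl2 had 0 in both libraries. Taking 3 counts as the limit, a count of 0 allows up to 0.0673 CPM in the control and 0.0562 CPM with TNF-α. Copies of the A and C families are similar enough that reads may be shared between them, and their low values are uncertain for that reason. Gasdermin E is listed under its older name Dfna5, outside the naming rule, with 731 and 727 counts and a log2 ratio of -0.27 (95% interval -0.42 to -0.12).

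Casp14, the caspase of the cornifying epidermis, which processes filaggrin and takes no known part in apoptosis, was the other gene called lower. It had 176 counts in the control and 95 with TNF-α, which gives a log2 ratio of -1.13 (95% interval -1.52 to -0.78). Its interval crosses 2-fold, and edgeR's exact test did not call it when cultures were taken to vary by 0.2 of their mean. Squamous genes were lower in the same library. Of 8 suprabasal genes from a marker list (Krt1, Krt10, Ivl, Lor, Sprr1a, Sprr1b, Sbsn and Krtdap), 7 reached 10 counts, 7 of these had a ratio below 0 and 4 were called lower. Their summed level was 592 CPM in the control and 212 CPM with TNF-α. Their part in the ratios of Gsdma and Casp14 was not tested, and in bulk libraries fewer cells of a type and less RNA per cell cannot be told apart.

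Among the necroptosis genes Ripk3 and Mlkl were called higher, and Ripk1 was not called. Mlkl encodes the pseudokinase that RIPK3 phosphorylates and that then breaches the membrane. It lies on chromosome 8 from 111311797 to 111338177 (ENSMUSG00000012519) and had 779 counts in the control and 2726 with TNF-α. Its log2 ratio was 1.55 (95% interval 1.43 to 1.66), a 2.92-fold difference. Ripk3, on chromosome 14 from 55784996 to 55788857 (ENSMUSG00000022221), had 60 and 250 counts and a log2 ratio of 1.77 (95% interval 1.39 to 2.23), a 3.41-fold difference. Ripk1, the kinase recruited to the TNF receptor complex, had 3476 and 4362 counts and a log2 ratio of 0.07 (95% interval 0.0032 to 0.13). Per length, Ripk3 stood at 0.054 of the level of Ripk1 in the control and at 0.179 with TNF-α. Mlkl was far more abundant than Ripk3 in both libraries, with 11.1 times its level in the control and 9.3 times with TNF-α. By level, Mlkl moved from rank 13 among the 53 genes in the control to rank 5 with TNF-α, at 7.59 and 22.2 RPKM.

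The remaining kinases of the family, and the adaptor gene Fadd, did not pass 2-fold. Ripk2, which signals from the NOD receptors to NF-κB, had 306 and 478 counts (log2 ratio 0.38, 95% interval 0.17 to 0.60). Ripk4, a regulator of keratinocyte differentiation, had 3532 and 4021 counts (log2 ratio -0.07, 95% interval -0.14 to -0.0071). Fadd, the adaptor that joins death receptors to caspase-8, had 648 and 816 counts and a log2 ratio of 0.07 (95% interval -0.08 to 0.22). Part of the Ripk1 exons, 34.3% of their length, is shared on the same strand with Gm17084, which had 234 and 353 counts, and 241 bases lie opposite exons of Serpinb6a. Reads in such stretches cannot be given to 1 gene with certainty.

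**Figure D2:**
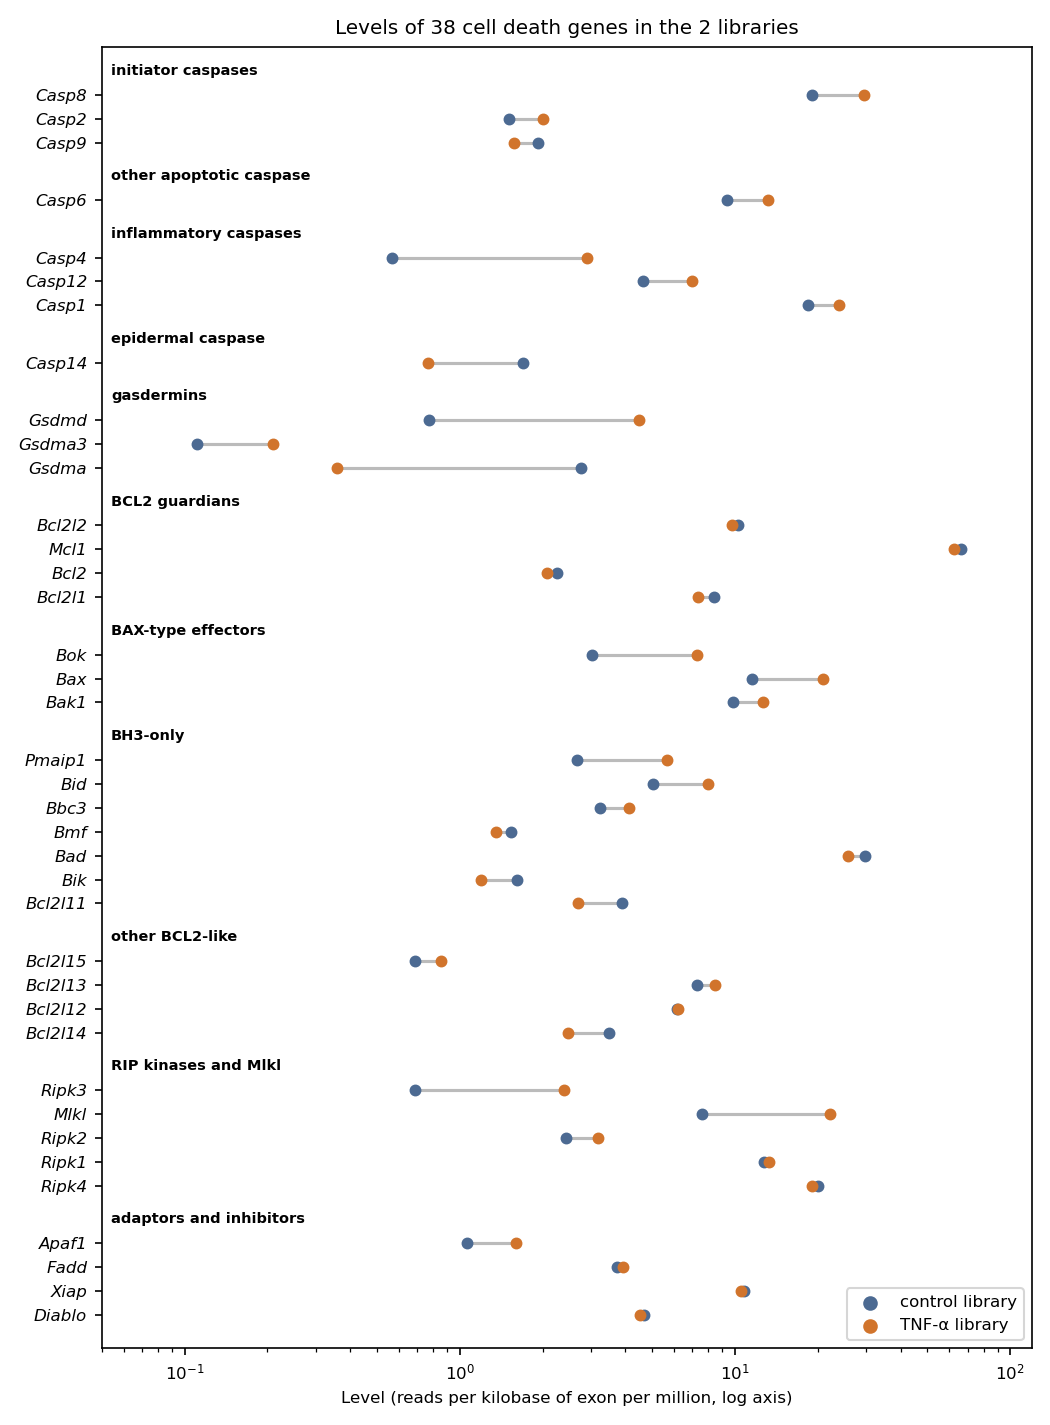
Levels of 38 of the genes with at least 10 counts are plotted in RPKM on a logarithmic axis, with blue points for the control library, orange points for the TNF-α library and a grey line joining the pair. Mcl1 lies farthest to the right in both libraries at 66.4 and 62.3 RPKM, and the longest lines belong to Gsdma, Gsdmd and Casp4.

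The apoptotic caspases described here differed by less than 2-fold. Casp8, the initiator activated at death receptors and the enzyme that restrains RIPK1 and RIPK3, had 2456 and 4554 counts and a log2 ratio of 0.63 (95% interval 0.56 to 0.70). It was also the most abundant caspase gene by level in both libraries, at 19.0 and 29.5 RPKM. Casp9, the initiator of the mitochondrial route, had 447 and 437 counts and a log2 ratio of -0.29 (95% interval -0.49 to -0.10). The level of Casp8 relative to Casp9 was 9.87 in the control and 18.7 with TNF-α. Casp2, an initiator that responds to faulty cell division, had 474 and 755 counts and a log2 ratio of 0.41 (95% interval 0.24 to 0.58). The counting intervals of Casp8 and Casp9 lie on opposite sides of no change.

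Casp6, another caspase of the apoptotic cascade, had 2323 and 3927 counts and a log2 ratio of 0.50 (95% interval 0.42 to 0.57), and was not called. Apaf1, which assembles the apoptosome on which caspase-9 is activated, had 429 and 773 counts and a log2 ratio of 0.59 (95% interval 0.42 to 0.76). Xiap, which inhibits caspases, had 4440 and 5195 counts and a log2 ratio of -0.03 (95% interval -0.09 to 0.02). Diablo, whose protein leaves mitochondria and counters XIAP, had 1448 and 1675 counts and a log2 ratio of -0.05 (95% interval -0.15 to 0.05). Inhibitor and antagonist were thus in nearly the same proportion in both libraries, with Xiap at 2.29 and 2.32 times the level of Diablo.

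The BCL2 family holds proteins that protect mitochondria, proteins that perforate them, and BH3-only proteins that tip the balance. Among the protective genes, Mcl1 was the most abundant of all 53 genes in both libraries. It had 10122 and 11356 counts and a log2 ratio of -0.09 (95% interval -0.13 to -0.06). Bcl2l1, which encodes BCL-XL, had 1710 and 1793 counts (log2 ratio -0.19, 95% interval -0.29 to -0.10). Bcl2l2 had 2036 and 2326 counts (log2 ratio -0.07, 95% interval -0.15 to 0.02), and Bcl2 itself had 918 and 1014 (log2 ratio -0.12, 95% interval -0.25 to 0.01). All 4 ratios were below 0 and none passed 2-fold. Bcl2l2 shares 594 bases of exon with Gm20521 on the same strand, a far more abundant gene with 9456 and 11416 counts, so its counts are uncertain. The Bcl2a1 genes, which are known NF-κB targets in leukocytes, had 7 and 12 counts in sum over 4 copies. Bcl2a1b, with 0 and 8, shares 49.1% of its exon length with Gm29094, and Bcl2a1d had 7 and 2, Bcl2a1a 0 and 2, and Bcl2a1c 0 in both libraries. Bcl2l10, an ovarian member, also had 0 counts in both.

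The perforating genes lay on the other side of no change. Bok, which can act without BAX and BAK, lies on chromosome 1 from 93685660 to 93695764 (ENSMUSG00000026278). It had 247 and 717 counts and a log2 ratio of 1.27 (95% interval 1.07 to 1.49), and was the gene called in this group. Bax had 810 and 1762 counts and a log2 ratio of 0.86 (95% interval 0.74 to 0.98), the closest to the threshold among the genes that were not called. Bak1 had 1052 and 1629 counts and a log2 ratio of 0.37 (95% interval 0.26 to 0.48). The 3 effector genes summed to 24.4 RPKM in the control and 40.9 RPKM with TNF-α, while the 4 protective genes summed to 87.5 and 81.7 RPKM. The ratio of the former to the latter was 0.279 in the control and 0.503 in the TNF-α library. Bax shares 192 bases of exon with a transcript listed as RP23-218K15.5, which had 684 and 1510 counts and a log2 ratio of 0.88, and 357 bases of Bak1 lie opposite Ggnbp1.

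**Figure D3:**
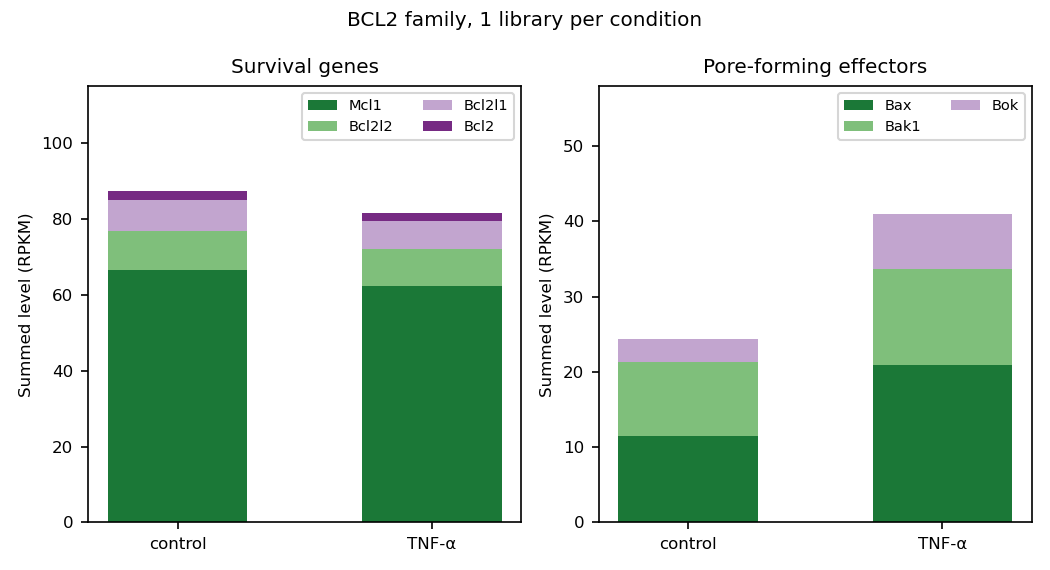
Stacked bars give the summed RPKM of Mcl1, Bcl2l2, Bcl2l1 and Bcl2 on the left and of Bax, Bak1 and Bok on the right, for the control and the TNF-α library, with a different vertical scale in each panel. The protective sum goes from 87.5 to 81.7 and the effector sum from 24.4 to 40.9.

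The BH3-only genes were mixed, with 3 of 7 above 0 and 4 below. Pmaip1, which encodes NOXA, an antagonist of MCL1, had 315 and 797 counts and a log2 ratio of 1.08 (95% interval 0.89 to 1.27), a 2.11-fold difference. Its interval crosses 2-fold, and like Casp14 it was not called by edgeR's exact test with an assumed spread of 0.2. Bid, which caspase-8 cuts to link death receptors to mitochondria, had 799 and 1516 counts and a log2 ratio of 0.66 (95% interval 0.54 to 0.79). Bbc3, which encodes PUMA, a target of p53, had 307 and 467 counts and a log2 ratio of 0.34 (95% interval 0.13 to 0.56). Bcl2l11, which encodes BIM, a killer of epithelial cells that lose attachment, had 1392 and 1150 counts and a log2 ratio of -0.53 (95% interval -0.65 to -0.42). It was the lowest of the group and the gene with the lowest ratio among those not called. Bmf, whose protein is also tied to loss of attachment, had 360 and 380 counts (log2 ratio -0.18, 95% interval -0.39 to 0.03). Bad, which growth factor signaling silences by phosphorylation, was the most abundant BH3-only gene at 29.6 and 25.7 RPKM, with 2645 and 2753 counts and a log2 ratio of -0.20 (95% interval -0.28 to -0.12). Bik had 68 and 60 counts (log2 ratio -0.43, 95% interval -0.97 to 0.08), and Hrk had 4 and 0.

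Bid and its family member Bcl2l13 converge on chromosome 6, where their ends meet and 628 bases of their exons overlap on opposite strands. Whether counting used the strand is not given in the sources used here, so reads in this stretch cannot be told apart. Bcl2l13, which takes part in the removal of mitochondria, had 2952 and 4113 counts and a log2 ratio of 0.22 (95% interval 0.15 to 0.29). Bcl2l12 had 544 and 652 counts and a log2 ratio of 0.0015 (95% interval -0.16 to 0.17), and 660 bases of its exons lie opposite those of other genes, Irf3 among them. Bcl2l14 had 638 and 542 counts (log2 ratio -0.49, 95% interval -0.66 to -0.33) and Bcl2l15 had 83 and 124 (log2 ratio 0.31, 95% interval -0.09 to 0.74). In all, 15 of the 53 genes share exon bases with another listed gene, among them Bad, with 517 bases opposite Gpr137, and Diablo, with 1326 bases opposite B3gnt4. Among the 8 called genes there was no such overlap.

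Among all genes with at least 200 counts, the 5th and 95th percentiles of the log2 ratio were -0.74 and 0.88. Both lie inside 2-fold, so a called gene of this depth falls outside them by the call rule itself. Of the death genes that were not called, Bax, at 0.86, lay just under the 95th percentile. The share above 0 was 63.2% for the 38 genes and 50.0% for all genes counted as well.

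**Figure D4:**
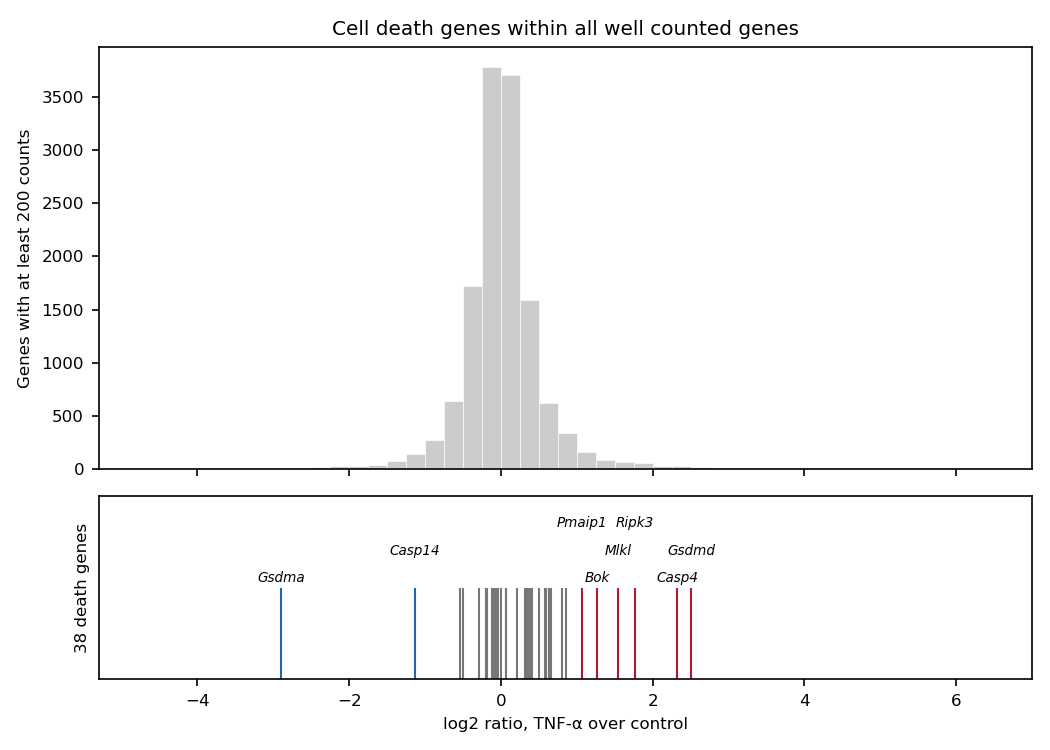
The upper panel counts all 13609 genes with at least 200 counts in bins of 0.25 of the log2 TNF-α/control ratio, and the lower panel marks each of the 38 death genes counted as well. Red lines are genes called higher, blue lines genes called lower and grey lines the rest. The red lines run from Pmaip1 at 1.08 to Gsdmd at 2.51, and the blue lines are Casp14 at -1.13 and Gsdma at -2.90.

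Several of these genes are also expressed by leukocytes, and markers of other cells were therefore read in the same libraries. Of 19 leukocyte and macrophage genes, 13 reached 10 counts and 1, Cd14, was called higher. The list summed to 35.0 CPM in the control and 41.2 CPM with TNF-α. Without Cd14, left out after its value was seen, it summed to 28.8 and 27.0 CPM, a log2 ratio of -0.09 (95% interval -0.20 to 0.02). Ptprc, the gene for CD45, against which the sort was gated, had 26 and 38 counts, Adgre1 had 0 and 2, and Cd3e and Ly6g had 0 in both. Other myeloid genes were present, with Lyz2 at 114 and 109 counts, Csf1r at 92 and 81 and Cd68 at 83 and 75. Apart from Cd14, S100a9 (454 and 468) and Lcp1 (382 and 535) held the most counts of the list. Of the 13 leukocyte and macrophage genes with at least 10 counts, 5 had a ratio above 0. The basal markers Krt5, Krt14, Krt17, Trp63, Acta2, Mylk and Itga6 were present in both libraries at 9534 and 9563 CPM in sum, and the luminal markers Krt8, Krt18, Krt19, Epcam, Elf5 and Prlr at 3802 and 3257 CPM. Of the basal markers 0 were called and of the luminal markers Prlr was called lower. Of the 7 basal markers 5 had a ratio above 0, with a median log2 ratio of 0.16. Of the 6 luminal markers 1, Epcam, had a ratio above 0, and the median was -0.46. Fibroblast genes summed to 498 and 485 CPM and endothelial genes to 6.57 and 6.24 CPM. The fibroblast sum joins genes that moved in different directions, with 3 of 5 above 0. Of these 5, Dcn was called higher, with 184 and 582 counts (log2 ratio 1.39). Col3a1 had 5628 and 4250 counts (log2 ratio -0.66) and was not called.

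Beyond the named families, a list of 66 genes of cell death signaling was read, with sensors, ligands, receptors, adaptors and inhibitors. Of these, 63 were in the table and 54 reached 10 counts, and 13 of the 54 (24.1%) were called higher and 0 lower. Over all 20771 genes with at least 10 counts, 7.39% were called higher and 5.89% lower. The list was chosen with earlier results of these data known, so its share describes the list and not cell death signaling at large. Among the receptors and ligands, Tnfrsf1b, which encodes the inducible TNF receptor, had 18 and 207 counts (log2 ratio 3.14), while Tnfrsf1a, which holds the death domain, had 1729 and 1623 (log2 ratio -0.35). Tnf itself had 112 and 1156 counts (log2 ratio 3.09), Tnfsf10, which encodes TRAIL, had 445 and 1759 (log2 ratio 1.72), and Fas had 563 and 1362 (log2 ratio 1.01, 95% interval 0.87 to 1.16). The receptors given here thus held genes called higher and a gene below no change, Tnfrsf1a.

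Genes that restrain death from the TNF receptor were among the 13. Tnfaip3, which encodes the ubiquitin editor A20, had 743 and 4875 counts (log2 ratio 2.45), and Birc3, which encodes the ubiquitin ligase cIAP2, had 880 and 3735 (log2 ratio 1.82). Other brakes did not pass 2-fold. Cflar, which encodes the caspase-8 inhibitor cFLIP, had 5327 and 6935 counts (log2 ratio 0.12, 95% interval 0.07 to 0.17), Birc2 had a log2 ratio of 0.34 and Traf2 of 0.80.

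The nucleic acid sensor Zbp1, which activates RIPK3, had 63 and 754 counts and a log2 ratio of 3.28 (95% interval 2.95 to 3.72). The guanylate-binding protein genes Gbp2, Gbp3 and Gbp5, whose products help to present lipopolysaccharide to caspase-11, had log2 ratios of 2.42, 3.37 and 2.08. Among the inflammasome genes Naip2, a sensor that works with NLRC4, was called higher on 2 and 13 counts (log2 ratio 1.73, 95% interval 0.30 to 5.63), and the other members given here were not called. Pycard, the adaptor ASC, had 705 and 828 counts (log2 ratio -0.03, 95% interval -0.17 to 0.12), Nlrp3 had 0 and 6, Nlrc4 had 0 in both, and Aim2 had 8 and 18. The cytokine gene Il1b had 13 and 6 counts and Il1a 33 and 26, while Il18 had 152 and 241, a log2 ratio of 0.40 (95% interval 0.11 to 0.71). Il1rn, the antagonist of interleukin-1, had 340 and 1384 counts (log2 ratio 1.76). The remaining gene called higher was Bnip3 (768 and 3286 counts, log2 ratio 1.84).

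**Figure D5:**
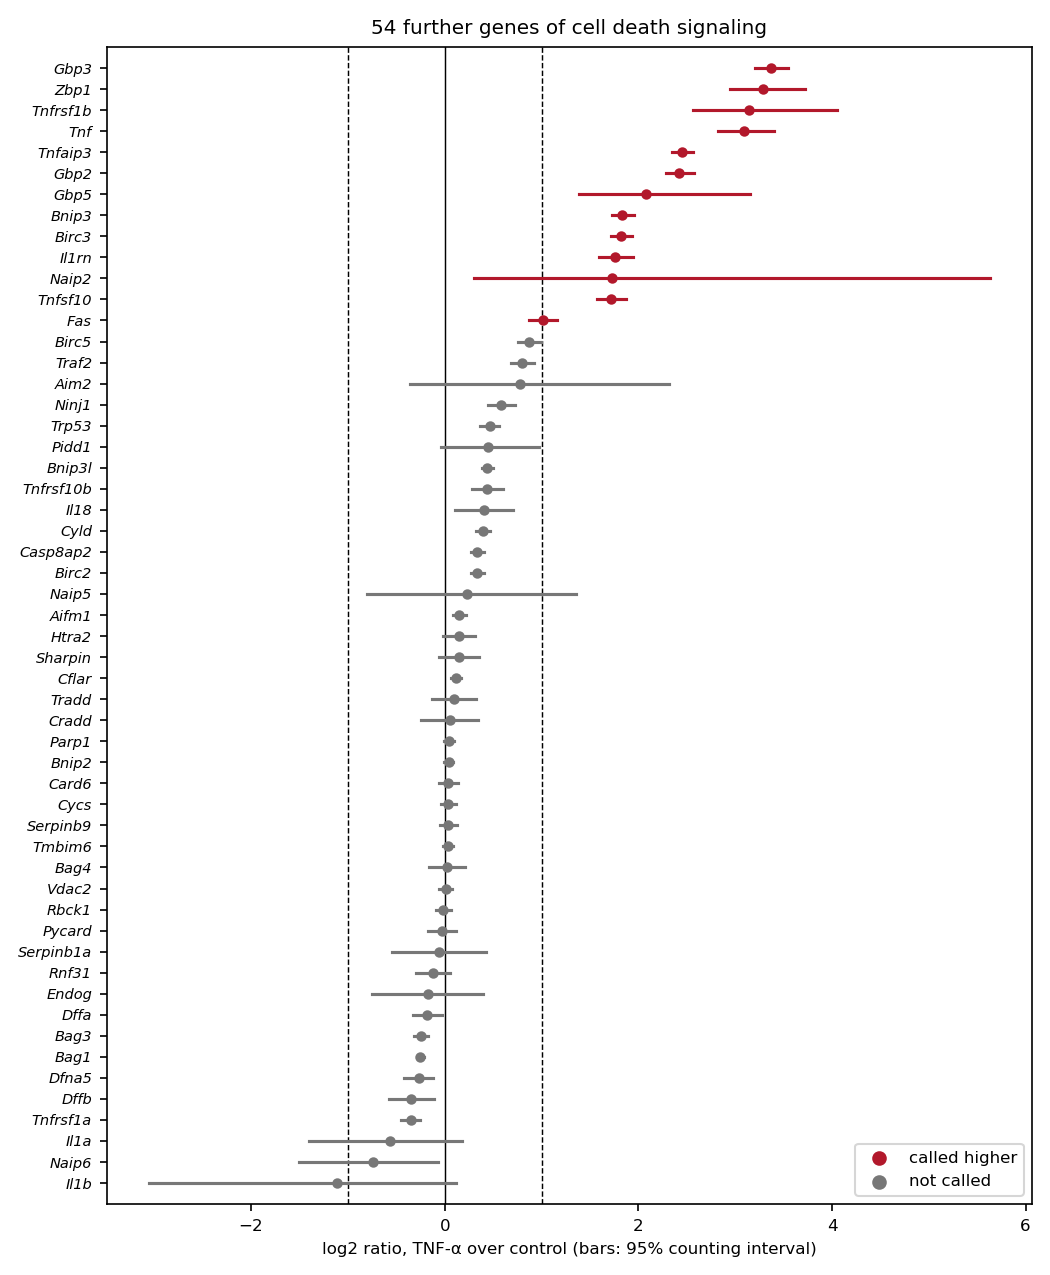
The horizontal axis gives the log2 TNF-α/control ratio of the 54 further genes with at least 10 counts, in order of the ratio, with bars for the 95% counting interval and dashed lines at 2-fold. The 13 red points run from Fas at 1.01 to Gbp3 at 3.37, and no gene was called lower.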

How the data were processed

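Per the labels and the study's methods, basal cells were sorted by FACS, grown in 3D and sequenced as 1 control and 1 TNF-α library. The authors deposited raw read counts per gene with exon coordinates. The aligner, counting tool, annotation and strand setting were not given in the sources used here, and GRCm38 and mm10 are the builds in the submitters' processing notes. The labels name a SMARTER mRNA-Seq kit. Gene identifiers were matched by name to GENCODE M21; of 47240 gene names shared, 90.9% had the same span there.

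From the counts, library sizes were scaled by TMM (edgeR 4.0.16, R 4.3.3) over genes with at least 10 counts summed, and ratios, Clopper-Pearson intervals and RPKM were computed for the whole table (Python 3.11.15, scipy 1.17.1, pandas 2.3.3). A count of 10 is worth 0.224 CPM in the control and 0.187 CPM in the TNF-α library. The edgeR quasi-likelihood test needs replicates and was not run. Every member of the naming rule entered the counts and medians, and 2 members are not reported here by name. The members, lists and alternatives were chosen with earlier results of these data known, and the interferon-type promoter motif and the limit of 200 counts after the values were seen. On simulated data with counting error only, 200 of 200 genes changed 4-fold were recovered among 20771, with 109 false calls, of which 0 were in genes with at least 200 counts. In both simulations the changed genes were drawn from those with at least 200 counts. Recovery at lower counts or of smaller changes was therefore not simulated. With a simulated coefficient of variation of 0.2 between cultures, 195 of 200 were recovered among 20771, with 589 false calls, 234 of them in genes with at least 200 counts. Alternatives were other scalings (DESeq2 1.42.0 size factors among them), filters, prior counts, call rules and halved counts. RefSeq promoters were matched by symbol.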

Additional observations from a re-analysis of the deposited data

How the results depend on the processing

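No paired analysis was possible because the study holds 1 control and 1 TNF-α library, and for the same reason leaving out a replicate was not possible. The 6 death genes called higher and 2 called lower were the same genes when libraries were scaled by total counts, by the upper quartile or by DESeq2 size factors, and with prior counts of 0.5 and 5, with removal of mitochondrial and ribosomal RNA genes, halved counts, at least 1 CPM and fold alone. Without a filter Bcl2a1b joined them. A fold of 1.5 gave 13 of 40 higher, adding Bax, Bid, Casp8, Casp12 and Apaf1 among others, and the same 2 lower. Over all genes it gave 12.1% higher and 10.3% lower. A fold of 4 left 2 of 40 higher (Gsdmd and Casp4) and 1 lower (Gsdma), beside 2.6% and 1.65% over all genes. Requiring the whole interval past 2-fold, or assuming a coefficient of variation of 0.2 in edgeR's exact test, left 5 higher and 1 lower, without Pmaip1 and Casp14. Over all genes the former called 3.74% higher and 2.7% lower, and the latter 3.59% and 2.52%. The median log2 ratio stayed between 0.22 and 0.33, and 280 of 280 values of single genes stayed within their counting interval. The 7 alternatives per gene reuse the same 2 libraries with other scalings, prior counts, removed genes or halved counts. Such changes move a ratio little, so this says nothing of the spread between cultures. Over all genes, 1535 higher and 1223 lower became 836 and 658 with at least 1 CPM, 2522 and 2130 at a fold of 1.5, 540 and 342 at 4, 776 and 561 with the whole interval, and 745 and 523 with the assumed variation, because fewer genes are tested or the threshold differs. Genes with 2 counts outnumbered those with 1 in both libraries (2172 against 618 in the control). Counting each end of a pair would make the printed intervals too narrow, and whether it was done is not given in the sources used here. With halved counts the same 8 genes were called. The spread between cultures was not measured, and a chance difference of the 2 cultures cannot be told from a response to TNF-α.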
